A study of Mus musculus with 6 samples.

Results

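The genes described here are Trp53, which encodes the mouse tumor suppressor p53, and 9 genes known as p53 targets: Mdm2, Trp53inp1, Bax, Bbc3, Sesn1, Ccng1, Phlda3, Zmat3 and Perp. They were chosen by name, and all 10 were found among the 54146 genes of the deposited expression table. Cells of the mouse mammary tumor line D2A1 formed 3D spheroids in Matrigel, in DMEM with serum, and received either recombinant SLURP1 (rSLURP1), a secreted Ly6/uPAR-related protein, or recombinant GST (rGST), the control, each at 50 nM. Gene expression was measured by RNAseq in 3 libraries per treatment, from spheroids harvested on day 5. The labels list no genetic change in either group, and the only difference they give between the groups is the added protein. D2A1 is a single cell line, and nothing in the labels says whether the 3 libraries of a treatment came from separate cultures, so the p-values measure the spread between these libraries, which may be technical. The question of the comparison is which genes differ between SLURP1 treatment and control in vitro.

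p53 is a transcription factor that is kept low in unstressed cells by MDM2, a ubiquitin ligase that sends p53 to degradation, and by MDM4, which blocks its activity. Under DNA damage, oncogene activity or ribosomal stress, p53 is stabilized mainly at the protein level and raises genes that arrest the cell cycle, start apoptosis, repair DNA or adjust metabolism. Mdm2 is itself a p53 target, so that the pathway restrains itself. Many of these targets are also controlled by other factors, and the level of Trp53 RNA is not a measure of p53 activity.

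p53 binds DNA through 2 copies of a consensus decamer placed one after the other. RefSeq promoter windows on GRCm38.p6, reaching from 250 bases before to 50 bases after a gene's start, were on hand for 7 of the 10 members, and Trp53inp1, Zmat3 and Perp had none in that table. The consensus decamer, a palindrome that reads alike on both strands, was present without a mismatch in a window of 5 of the 7 members, Trp53, Mdm2, Bax, Sesn1 and Ccng1. The share among all 27025 genes with a window was 9.55%. A tandem site of 20 bases, with at most 3 bases off the consensus and at most 1 base between the decamers, was found in 5 of the 7 (Trp53, Bax, Bbc3, Sesn1 and Ccng1), against 3.27% of all genes. These searches overlap, because most of the decamers are part of a tandem site. The members had been chosen as p53 targets, so these counts describe the choice, and a match is a run of letters and not a measured binding site.

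The stretches with a decamer are shown because members that carry one did not all move alike with rSLURP1. In the deposited values Bax was higher, and Ccng1, Sesn1, Mdm2 and Trp53 were lower. Whether a site bears on the direction was not tested. Capitals mark the decamer or, where there is one, the tandem site (in Cdkn1a a decamer and a tandem site), and 20 bases on each side are in lower case. All are read 5′ to 3′ on the gene's own strand. They lie at chr11:40755442-40755501 for Ccng1 (minus strand), chr7:45467059-45467119 for Bax (minus strand), chr10:41887246-41887305 for Sesn1 (plus strand), chr10:117710915-117710964 for Mdm2 (minus strand) and chr11:69580264-69580323 for Trp53 (plus strand). The gene for the cell cycle inhibitor p21, Cdkn1a, is added as a well-known p53 target outside the 10 members (chr17:29090886-29090967, plus strand).
Ccng1: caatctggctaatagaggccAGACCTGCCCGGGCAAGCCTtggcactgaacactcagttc
Bax: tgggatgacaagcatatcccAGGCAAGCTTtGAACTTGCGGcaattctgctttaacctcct
Sesn1: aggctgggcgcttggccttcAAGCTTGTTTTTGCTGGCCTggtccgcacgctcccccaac
Mdm2: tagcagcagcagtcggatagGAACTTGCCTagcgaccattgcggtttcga
Trp53: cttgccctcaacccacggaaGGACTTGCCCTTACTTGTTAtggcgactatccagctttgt
Cdkn1a: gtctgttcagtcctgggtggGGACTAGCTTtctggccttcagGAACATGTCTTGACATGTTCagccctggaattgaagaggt
The tandem site of Ccng1 was 1 base off the consensus, that of Bax 2 bases, and those of Trp53 and Sesn1 3 bases each. For Sesn1 and for Cdkn1a the marked sites were in 1 of 2 windows, and for Mdm2 only a single decamer was found. The site through which p53 is known to induce Mdm2 lies within the gene, outside this window.

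The deposited values are TPM, which corrects for transcript length and scales every library to the same total but keeps no read depth, so the counting error of each value is unknown. From 11906 to 12449 genes reached a TPM of 1 per library. Differences were tested with limma on log2(TPM + 1) over 12301 genes, with Benjamini-Hochberg adjustment, and a gene is called here when its adjusted p is 0.05 or less. A log2 fold change is rSLURP1 against rGST on this scale, which understates the change of low genes. The median log2 fold change of all tested genes was -0.33. As deposited, 1065 genes were called higher and 7200 lower, whereas scaling each library by the median ratio of its genes gave 3198 higher and 3094 lower. Each member is therefore also given relative to that median or after such scaling. The 8 epithelial markers, checked for the labelled mammary tumor cell type, summed to 194 to 201 TPM with rGST and 198 to 201 with rSLURP1. Nearly all of this was Krt18, which was at 191 to 199 TPM. Of the defining epithelial markers, Epcam, Krt5 and Krt14 were listed at 0 in every library, and Cdh1 stayed below 0.1 TPM. The 6 leukocyte markers summed to 3.58 to 4.12 TPM with rGST and 7.85 to 10.7 with rSLURP1, nearly all from Cd68, with Adgre1 and Cd3e at 0. The 4 endothelial markers summed to at most 0.31 TPM. The 7 stromal markers summed to 2252 to 2479 TPM with rGST and 725 to 779 with rSLURP1, with none of them at 0 in every library and Col1a2 below 0.5. Most of that sum was Vim, while Dcn was at 520 to 636 TPM with rGST and 5.15 to 5.88 with rSLURP1, and Lum at 165 to 195 and 0.58 to 1.09. The part of these shifts in the results below was not tested. In bulk libraries such as these, fewer cells of one state and less RNA per cell cannot be told apart.

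Among the members, Bax had by far the highest level in both treatments, and Zmat3 the lowest. With rGST the order by mean TPM was Bax (132), Perp (46.3), Mdm2 (36.5), Sesn1 (36.0), Ccng1 (24.1), Bbc3 (20.9), Trp53 (18.3), Trp53inp1 (15.4), Phlda3 (9.67) and Zmat3 (6.40). Of these neighbors, only Mdm2 and Sesn1 overlapped between libraries. With rSLURP1 the order was Bax (171), Mdm2 (31.8), Perp (29.7), Sesn1 (23.3), Bbc3 (20.1), Trp53inp1 (18.6), Ccng1 (14.3), Trp53 (12.3), Phlda3 (10.3) and Zmat3 (5.99). Here the overlapping neighbors were Mdm2 and Perp, Bbc3 and Trp53inp1, Ccng1 and Trp53, and Trp53 and Phlda3. Trp53inp1 thus stood below Ccng1 and Trp53 in every rGST library and above both in every rSLURP1 library.

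**Figure D1:**
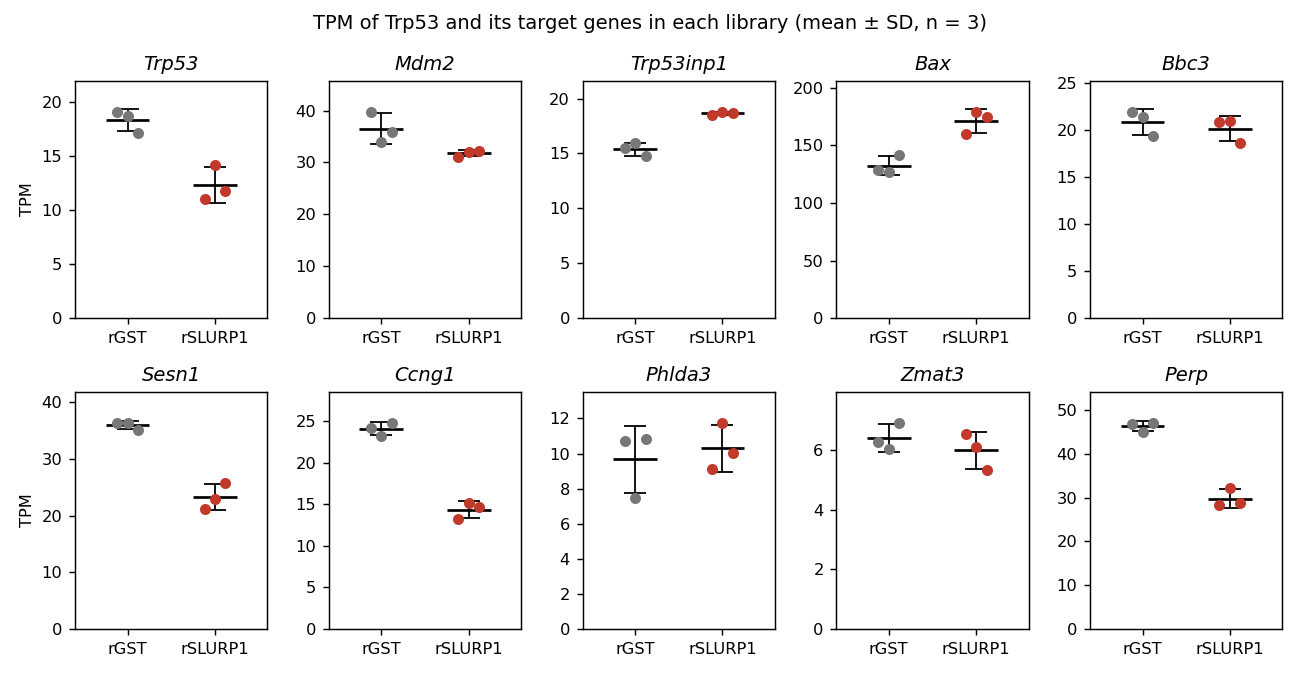
Each panel plots the TPM of 1 member (vertical axis, linear, from 0) in the 3 rGST libraries (gray points) and the 3 rSLURP1 libraries (red points), with bars for the mean and SD. Bax and Trp53inp1 are higher in every rSLURP1 library, Trp53, Mdm2, Sesn1, Ccng1 and Perp are lower in every one, and Bbc3, Phlda3 and Zmat3 overlap.

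The 10 members did not move together with rSLURP1. Bax and Trp53inp1 were called higher, Trp53, Mdm2, Sesn1, Ccng1 and Perp were called lower, and Bbc3, Phlda3 and Zmat3 were not called. A call was thus made for 7 of the 10 members, a share close to the 67.2% of all tested genes. The 2 higher members stand beside 8.66% of all tested genes called higher, and the 5 lower members beside 58.5% called lower. No member changed by a fold of 2 or more, which 8.22% of all tested genes did. The same 7 members had groups that did not overlap, 2 of them higher and 5 lower, against 71.4% of all tested genes (9.75% higher and 61.7% lower). The median log2 fold change of the members was -0.14, and 6 of the 10 lay above the all-gene median.

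Scaling changed the split. With median-ratio scaling, 3 members were called higher (Bax, Trp53inp1 and Bbc3) and 3 lower (Sesn1, Ccng1 and Perp), beside 26% and 25.2% of all tested genes, or 51.2% in either direction. After correcting for the length and GC content of transcripts, 4 were called higher (Bax, Trp53inp1, Bbc3 and Zmat3) and 2 lower (Ccng1 and Perp), beside 27% and 21.9% of all tested genes, or 48.9% in either direction. Quantile normalization gave 5 higher (these 4 and Phlda3) and 3 lower (Sesn1, Ccng1 and Perp), beside 25.3% and 23.6%, or 48.9% in either direction. Bax and Trp53inp1 were therefore higher, and Ccng1 and Perp lower, in each of these fits. Trp53 and Mdm2 were called with none of median-ratio scaling, the length-GC correction and quantile normalization. In that order, these settings moved the all-gene median from -0.33 to -0.0012, 0.030 and 0.020. They thus shared a re-centering, and the part of length and GC alone in the changed calls was not tested.

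**Figure D2:**
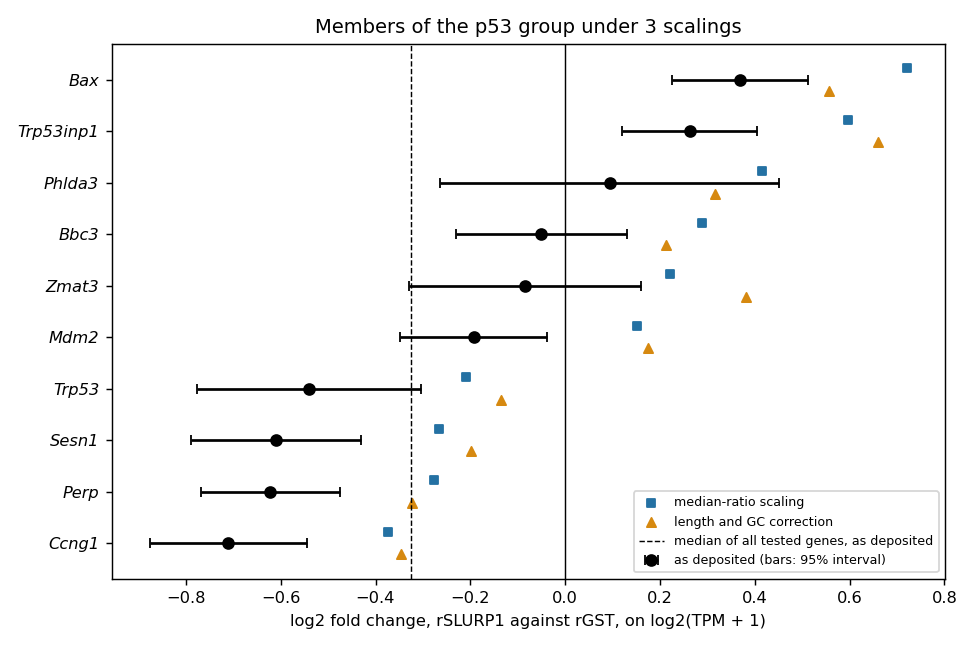
The log2 fold change of each member (horizontal axis, rSLURP1 against rGST on log2(TPM + 1)) is drawn for the TPM as deposited (black, with 95% intervals), after median-ratio scaling (blue squares) and after the length-GC correction (orange triangles). The dashed line is the median of all tested genes as deposited, -0.33. Bax and Trp53inp1 stay right of 0 and Ccng1 and Perp left of 0 in all 3, while Mdm2, Bbc3 and Zmat3 change sides.

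Trp53 (ENSMUSG00000059552.13; GRCm38 chromosome 11, 69580359 to 69591873, plus strand) had 19.1, 18.7 and 17.2 TPM in the rGST libraries and 10.98, 14.2 and 11.8 in the rSLURP1 libraries. Every rSLURP1 library was below every rGST library. The mean fell from 18.3 ± 1.02 to 12.3 ± 1.68 TPM (SD, n = 3 each), which is -0.54 in log2 fold change (SE 0.101, adjusted p = 0.00222 in limma). Set against the all-gene median this is -0.22, and the gene was not called with median-ratio scaling (log2 fold change -0.21, adjusted p = 0.0949 in limma) or with the length-GC correction (-0.13, adjusted p = 0.239 in limma). Of its relatives, Trp63, which encodes the epithelial p53 family member p63, went from 4.01 ± 0.345 to 1.93 ± 0.369 TPM (SD, n = 3 each; log2 fold change -0.78, adjusted p = 0.00158 in limma). Trp73 was listed at 0 in all 6 libraries. Of the 3 genes of the p53 family, 2 were tested, and both were called lower as deposited, beside 58.5% of all tested genes. Their median was -0.66. Trp63 was called lower with median-ratio scaling as well (-0.52) and not with the length-GC correction (-0.37, adjusted p = 0.0590 in limma).

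Mdm2 and Mdm4, the main negative regulators of p53, were set apart by the size of their differences. Mdm2 (ENSMUSG00000020184.15; chromosome 10, 117688875 to 117710758, minus strand) had 39.7, 34.0 and 35.8 TPM with rGST and 31.1, 31.9 and 32.2 with rSLURP1. Its groups did not overlap, but the lowest rGST library and the highest rSLURP1 library lay close together. The log2 fold change was -0.19 (SE 0.066, adjusted p = 0.0334 in limma), or 0.13 above the all-gene median. The call was lost without rGST replicate 1 (log2 fold change -0.13, adjusted p = 0.103 in limma) or 3 (-0.20, adjusted p = 0.0592), and without rSLURP1 replicate 1 (-0.18, adjusted p = 0.0866), 2 (-0.20, adjusted p = 0.0647) or 3 (-0.20, adjusted p = 0.0624). After median-ratio scaling the direction turned, to 0.15 (adjusted p = 0.0905 in limma). Mdm4, in contrast, had 68.9, 71.8 and 66.7 TPM with rGST and 38.3, 36.0 and 36.1 with rSLURP1. It fell as deposited and in all 16 alternative settings, with a log2 fold change of -0.89 as deposited (adjusted p = 7.46e-06 in limma) that became -0.54 after median-ratio scaling. The TPM ratio of Mdm2 to Mdm4 within a library, on a log2 scale, was -0.78, -1.06 and -0.88 with rGST and -0.29, -0.17 and -0.16 with rSLURP1, a difference of 0.70. The groups did not overlap, and p was 0.1 in the exact permutation test (two-sided), the smallest that 3 libraries against 3 can give, with an adjusted p of 0.12 over 12 gene pairs.

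Of the 6 genes in the feedback list, which holds Mdm2, Mdm4 and Ccng1, 5 were called lower and none higher by limma, beside 58.5% and 8.66% of all tested genes. The median was -0.39, and 3 of the 6 lay above the all-gene median and 3 below. Ppm1d, which encodes the phosphatase WIP1 that switches off p53 signaling, went from 14.7 ± 0.956 to 9.71 ± 0.953 TPM (SD, n = 3 each; log2 fold change -0.55, adjusted p = 0.00131 in limma). Its adjusted p in limma was 0.0689 after median-ratio scaling. With that scaling the list held 2 lower genes (Mdm4 and Ccng1), beside 25.2% of all tested genes. The list held 1 higher gene, beside 26%, which was Rfwd2, the ubiquitin ligase COP1 (0.36, not called as deposited). Rchy1, another p53 ubiquitin ligase, had a log2 fold change of -0.23 (adjusted p = 0.0129 in limma), and of 0.11 after median-ratio scaling (adjusted p = 0.134).

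The pro-apoptotic members split by gene. Bax, whose protein permeabilizes the outer mitochondrial membrane, rose. Bax (ENSMUSG00000003873.11; chromosome 7, 45461697 to 45466898, minus strand) had 128, 127 and 142 TPM with rGST and 160, 179 and 175 with rSLURP1, with no overlap. The mean rose from 132 ± 8.26 to 171 ± 10.2 TPM (SD, n = 3 each), a ratio of 1.29. The log2 fold change was 0.37 (SE 0.062, adjusted p = 0.00127 in limma), which lay 0.69 above the all-gene median. Across 16 alternative settings it ranged from 0.34 to 0.72, with an adjusted p of at most 0.00641 in limma. Median-ratio scaling gave 0.72. The length-GC correction, made on the values as deposited, moved the 0.37 of Bax to 0.56. Among the members, Bax has the shortest transcript (1100 bases at most). A gene model on the same strand, Gm45808, shares 192 exon bases with Bax but had at most 0.22 TPM.

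Trp53inp1, which encodes a stress-induced protein with roles in p53-dependent apoptosis and in autophagy, was the other member that rose. The gene (ENSMUSG00000028211.11; chromosome 4, 11156431 to 11174379, plus strand) had 15.5, 15.9 and 14.7 TPM with rGST and 18.5, 18.8 and 18.7 with rSLURP1. The rSLURP1 libraries lay close together, above all rGST libraries. The difference was 0.26 in log2 (SE 0.061, adjusted p = 0.00632 in limma) and 0.60 after median-ratio scaling. Its paralog Trp53inp2, an autophagy gene, moved the other way, from 169 ± 1.86 to 43.1 ± 3.14 TPM (SD, n = 3 each; log2 fold change -1.95, adjusted p = 4.31e-07 in limma). The log2 ratio of Trp53inp1 to Trp53inp2 went from a mean of -3.37 to -1.16, the largest difference of the 12 pairs.

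Bbc3, which encodes the BH3-only protein PUMA, was nearly level in TPM. The gene (ENSMUSG00000002083.13; chromosome 7, 16308393 to 16318205, plus strand) had 21.9, 21.4 and 19.3 TPM with rGST and 20.9, 20.9 and 18.6 with rSLURP1, and the groups overlapped. Its log2 fold change was -0.05, with a 95% interval from -0.23 to 0.13 (adjusted p = 0.586 in limma). Leaving out 1 library moved it between -0.10, without rGST replicate 3, and 0.0046, without rSLURP1 replicate 3 (adjusted p = 0.964 in limma). After median-ratio scaling it was called higher at 0.29 (adjusted p = 0.0141 in limma). Zmat3, also called Wig1, encodes an RNA-binding zinc finger protein. The gene (ENSMUSG00000027663.12; chromosome 3, 32334792 to 32366014, minus strand) had 6.27, 6.02 and 6.92 TPM with rGST and 6.55, 6.10 and 5.33 with rSLURP1, with overlap. In log2 the difference was -0.08, with a 95% interval from -0.33 to 0.16 (adjusted p = 0.500 in limma), and it was called higher only with quantile normalization (0.31, adjusted p = 0.0424) and the length-GC correction (0.38, adjusted p = 0.0176 without and 0.0477 with a block for the replicate number). After median-ratio scaling it was 0.22 (adjusted p = 0.115 in limma). Leaving out 1 library moved the value as deposited between -0.14 (without rSLURP1 replicate 1) and -0.01 (without rSLURP1 replicate 3), and without rGST replicate 3 it was -0.03.

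Perp, a membrane protein of desmosomes that p53 raises in apoptosis and p63 in epithelia, fell. The gene (ENSMUSG00000019851.8; chromosome 10, 18845020 to 18857073, plus strand) had 46.7, 45.0 and 47.1 TPM with rGST and 28.3, 32.2 and 28.7 with rSLURP1. No library of one treatment reached the other, and the log2 fold change was -0.62 (SE 0.063, adjusted p = 1.01e-04 in limma). It was also called with median-ratio scaling (-0.28) and with the length-GC correction (-0.32).

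The apoptosis list includes the members Bax, Trp53inp1, Bbc3, Zmat3 and Perp, and 14 of its 16 genes were tested. By limma 3 were called higher, Bax and Trp53inp1 among them, and 4 lower, Perp among them. These stand beside 8.66% and 58.5% of all tested genes, and the median was -0.14. With median-ratio scaling 6 were called higher and 2 lower, beside 26% and 25.2% of all tested genes. Tnfrsf10b, the mouse TRAIL death receptor, was the gene of the list with the largest increase, from 5.46 ± 0.213 to 8.80 ± 0.506 TPM (SD, n = 3 each; log2 fold change 0.60, adjusted p = 5.90e-04 in limma). Fas, a death receptor and p53 target too, had 56.3, 51.3 and 53.1 TPM with rGST and 29.8, 37.1 and 35.6 with rSLURP1, a fall of the log2 value by 0.64 (adjusted p = 4.31e-04 in limma). Both held their direction and call with median-ratio scaling (0.91 and -0.29). Pmaip1, which encodes the BH3-only protein NOXA, was listed at 0 in all 6 libraries.

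The BCL2 family around Bax and Bbc3 showed lower levels of several restraining genes. Of 4 tested death-restraining genes, 3 were called lower and none higher, beside 58.5% and 8.66% of all tested genes, with a median of -0.66. Bcl2 fell from 14.5 ± 1.51 to 5.65 ± 0.126 TPM (SD, n = 3 each; log2 fold change -1.22, adjusted p = 3.00e-05 in limma). Bcl2l2 (BCL-W) and Mcl1 had log2 fold changes of -0.74 and -0.57, and these 3 genes were also called lower with median-ratio scaling. Bcl2l1, which encodes BCL-XL and at 73.1 TPM was second to Mcl1 (123 TPM) among the tested restraining genes with rGST, had a log2 fold change of -0.07, with a 95% interval from -0.20 to 0.06 (adjusted p = 0.279 in limma). Leaving out 1 library brought it to as little as -0.03, without rGST replicate 3 (adjusted p = 0.655 in limma). After median-ratio scaling it was called higher (0.28). Of 8 tested death-promoting genes, Bax was the only one called higher as deposited, and 3 were called lower, beside 8.66% and 58.5% of all tested genes. With median-ratio scaling 4 of the 8 were called higher, Bax, Bbc3, Bid and Bad, and 1 lower, Bmf. The shares of all tested genes with that scaling were 26% and 25.2%. The largest fall among the tested genes of the lists was that of Bmf, a BH3-only gene, with 46.3, 43.0 and 45.6 TPM with rGST and 3.48, 4.71 and 4.65 with rSLURP1. Its log2 fold change was -3.13 (SE 0.105, adjusted p = 7.56e-07 in limma). Bcl2l11 (BIM) and Bak1 had log2 fold changes of -0.44 and -0.31 (adjusted p = 0.00101 and 0.00328 in limma) and were not called with median-ratio scaling.

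Ratios within a library, which the scaling of that library hardly moves, placed Bax higher against each BCL2 family gene it was set beside. Each difference of such a ratio follows from the log2 fold changes of its pair given above, and is not separate evidence. As deposited, Bax (0.37) lay above the 75th percentile of all tested genes (-0.07), so its ratio rises against most genes. The log2 TPM ratio of Bax to Bcl2 was 2.96, 3.00 and 3.38 with rGST and 4.60, 4.78 and 4.70 with rSLURP1, a difference of 1.58. Against Bcl2l1 the difference was 0.44, and against Bak1, the other effector of membrane permeabilization, it was 0.68. Bbc3 was higher relative to Mcl1 by 0.52. In each of these 4 pairs the groups did not overlap (exact permutation test, two-sided p = 0.1, adjusted p = 0.12 over the 12 pairs).

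**Figure D3:**
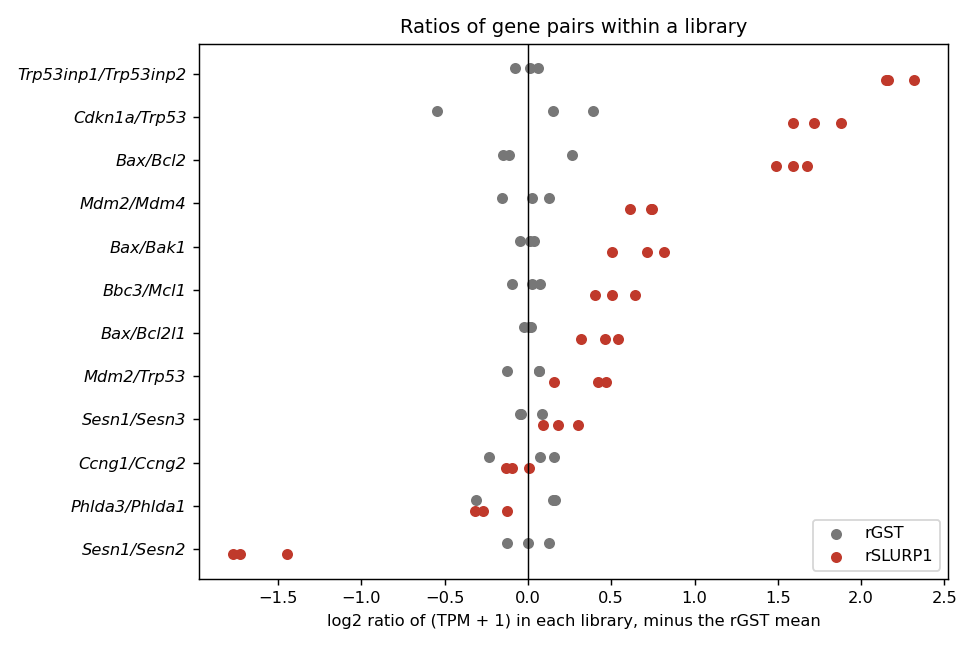
For each of 12 gene pairs, the horizontal axis gives the log2 ratio of TPM + 1 in each library minus the rGST mean of that pair, with rGST libraries in gray and rSLURP1 libraries in red. Trp53inp1 to Trp53inp2, Cdkn1a to Trp53 and Bax to Bcl2 moved furthest up and Sesn1 to Sesn2 furthest down, and the groups overlap for Ccng1 to Ccng2 and for Phlda3 to Phlda1.

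Of the members tied to growth control, Ccng1 had the largest decrease. Ccng1, or cyclin G1, is a p53 target that recruits a phosphatase to MDM2. The gene (ENSMUSG00000020326.7; chromosome 11, 40748552 to 40755311, minus strand) had 24.2, 23.3 and 24.8 TPM with rGST and 13.2, 15.1 and 14.7 with rSLURP1. The treatments were well separated. The log2 fold change of -0.71 (SE 0.071, adjusted p = 9.48e-05 in limma) came to -0.39 against the all-gene median. Over 16 alternative settings it lay between -0.75 and -0.31 and was called in each. Ccng2, its paralog, which is mainly known as a FOXO target, went from 102 ± 11.8 to 64.9 ± 2.48 TPM (SD, n = 3 each; log2 fold change -0.64, adjusted p = 3.13e-04 in limma). The log2 ratio of Ccng1 to Ccng2 differed by -0.07 between treatments, with overlapping groups (exact permutation test, two-sided p = 0.6). Without rGST replicate 3 that difference was 0.0058.

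Phlda3, an inhibitor of AKT that competes for membrane lipids, had overlapping groups. The gene (ENSMUSG00000041801.5; chromosome 1, 135766119 to 135769136, plus strand) had 10.7, 7.45 and 10.9 TPM with rGST and 9.13, 11.8 and 10.0 with rSLURP1. Its log2 fold change was 0.09, with a 95% interval from -0.26 to 0.45 (adjusted p = 0.609 in limma). It lay 0.42 above the all-gene median. The value was 0.42 after median-ratio scaling (adjusted p = 0.0501 in limma) and 0.32 under the length-GC correction (adjusted p = 0.113), and quantile normalization made it a call (0.49, adjusted p = 0.0297). Leaving out 1 library moved it between -0.07, without rGST replicate 2, its lowest library (adjusted p = 0.649 in limma), and 0.18, without rGST replicate 3 (adjusted p = 0.384). Phlda1, a paralog, rose from 94.5 ± 0.611 to 119 ± 5.71 TPM (SD, n = 3 each; log2 fold change 0.33, adjusted p = 4.64e-04 in limma). The log2 ratio of Phlda3 to Phlda1 differed by -0.24, with overlap (exact permutation test, two-sided p = 0.3). That difference was -0.39 without rGST replicate 2 and -0.16 without rGST replicate 3.

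Among the arrest genes outside the members, Cdkn1a and Plk3 rose and Gadd45a fell, each by more than any member. Of the 9 genes of the arrest list, 7 were tested, and 3 were called higher and 3, Ccng1 among them, lower, beside 8.66% and 58.5% of all tested genes. Cdkn1a had 2.84, 5.10 and 5.64 TPM with rGST and 11.3, 12.9 and 9.72 with rSLURP1, all above the rGST libraries. Its log2 fold change was 1.19 (SE 0.211, adjusted p = 0.00174 in limma), and it was called higher in all 16 alternative settings, from 0.94 to 1.58. Relative to Trp53 in the same library, Cdkn1a was higher by 1.73 on the log2 scale (exact permutation test, two-sided p = 0.1), whereas Mdm2 relative to Trp53 was higher by 0.35 (p = 0.1 in the same exact test). Plk3, a stress-activated polo-like kinase, rose from 10.5 ± 0.509 to 34.8 ± 4.58 TPM (SD, n = 3 each; log2 fold change 1.63, adjusted p = 1.09e-05 in limma). Btg2, an antiproliferative p53 target, rose too (0.34, adjusted p = 0.00709 in limma). Gadd45a, a growth arrest and DNA damage gene that p53 and several other factors raise, fell from 434, 437 and 427 TPM to 99.5, 112 and 108 TPM, a log2 fold change of -2.01 (SE 0.049, adjusted p = 2.30e-07 in limma).

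Genes that are lowered through p21 and the DREAM repressor complex, which shuts mitotic genes in arrested cells, lay on both sides of the all-gene median, 6 above and 4 below. Without rGST replicate 2 this was 10 above and 0 below, and without rSLURP1 replicate 2 it was 9 and 1. Of 10 tested, 5 were called lower and none higher as deposited, beside 58.5% and 8.66% of all tested genes, with a median of -0.29. Without rGST replicate 2, 3 were called lower. Aurkb, which encodes a mitotic kinase, and Plk1 had the largest decreases (-0.39 and -0.37). The calls for Cdc20 and Ccnb2 (-0.27 and -0.30) were lost when a single library was left out, Cdc20 without rGST replicate 2 or 3 or rSLURP1 replicate 1, and Ccnb2 without rGST or rSLURP1 replicate 1 or 2, with adjusted p up to 0.0618 and 0.0784 in limma. With median-ratio scaling none of the 10 was called lower and 2 were called higher, beside 25.2% and 26% of all tested genes.

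The sestrins, stress proteins that restrain mTORC1 and limit oxidative damage, did not move alike. Sesn1 (ENSMUSG00000038332.13; chromosome 10, 41809935 to 41908424, plus strand), the sestrin most closely tied to p53, had 36.4, 36.3 and 35.1 TPM with rGST and 21.2, 22.9 and 25.8 with rSLURP1. Every rSLURP1 library was lower, and the log2 fold change was -0.61 (SE 0.076, adjusted p = 2.97e-04 in limma). It was -0.27 with median-ratio scaling (adjusted p = 0.0224 in limma) and -0.20 with the length-GC correction (adjusted p = 0.0623 in limma). Sesn2, which ATF4 raises as well as p53, had 11.7, 12.8 and 13.6 TPM with rGST and 26.1, 29.1 and 25.99 with rSLURP1, a log2 fold change of 1.04 (SE 0.079, adjusted p = 2.82e-05 in limma). Sesn3, a FOXO target, went from 11.7 ± 0.592 to 6.31 ± 0.164 TPM (SD, n = 3 each; log2 fold change -0.80, adjusted p = 8.75e-05 in limma). The level of Sesn1 was above that of Sesn2 in every rGST library, with a mean log2 ratio of 1.44, and below it in every rSLURP1 library, though by little in replicate 3, with a mean of -0.21. The ratio of Sesn1 to Sesn3 differed by 0.19, a difference in which the groups did not overlap (exact permutation test, two-sided p = 0.1 for both ratios).

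Of the 12 tested genes of the metabolism and stress list, 2 were called higher and 5 lower, beside 8.66% and 58.5% of all tested genes. The median was -0.15, and it was -0.03 without rGST replicate 3 and -0.10 without rSLURP1 replicate 1. The 2 higher genes were Sesn2 and Ddit4 (REDD1), an mTORC1 inhibitor that also answers to hypoxia and ATF4, which rose from 114 ± 2.15 to 179 ± 8.25 TPM (SD, n = 3 each; log2 fold change 0.65, adjusted p = 1.68e-05 in limma). Gls2, the p53-regulated glutaminase, had mean TPM of 3.15 with rGST and 1.90 with rSLURP1, and its call (log2 fold change -0.52, adjusted p = 0.0356 in limma) was lost without rGST replicate 2 or 3 or rSLURP1 replicate 1 or 2, with adjusted p up to 0.108. With median-ratio scaling 5 genes of the list were called higher and 1, Sesn1, lower, beside 26% and 25.2% of all tested genes.

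All 7 genes of the DNA repair list were tested, and 6 were called lower and none higher, beside 58.5% and 8.66% of all tested genes. The median was -0.57, with 1 above and 6 below the all-gene median. Xpc, which recognizes damage in nucleotide excision repair, fell from 31.5 ± 1.01 to 15.9 ± 1.14 TPM (SD, n = 3 each; log2 fold change -0.95, adjusted p = 2.10e-05 in limma). Polh, a translesion polymerase, fell by 0.90 on the log2 scale (adjusted p = 3.05e-05 in limma). Rrm2b, the p53-inducible ribonucleotide reductase subunit, and Ercc5, an excision nuclease, had log2 fold changes of -0.43 and -0.46 (adjusted p = 0.0110 and 0.00210 in limma). After median-ratio scaling 3 of the 7 (Xpc, Polh and Polk) were called lower and 1, Rps27l, higher, beside 25.2% and 26% of all tested genes. Rps27l was not called with the length-GC correction (0.11, adjusted p = 0.0990 in limma).

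Of 18 regulators and cofactors of p53, 12 were called lower and 4 higher as deposited, beside 58.5% and 8.66% of all tested genes. Their median was -0.41, with 8 above and 10 below the all-gene median. Chek2, a DNA damage kinase that phosphorylates p53, fell by 0.81 on the log2 scale (adjusted p = 0.00230 in limma), and Ep300, an acetyltransferase and coactivator of p53, by 0.76 (adjusted p = 8.58e-05 in limma). The 4 higher genes were Hipk2, a kinase that phosphorylates p53 in apoptosis, and the ribosomal protein genes Rpl5, Rpl11 and Rpl23, whose free proteins can bind MDM2. Hipk2 rose from 15.1 ± 1.33 to 21.4 ± 2.41 TPM (SD, n = 3 each; log2 fold change 0.47, adjusted p = 0.00383 in limma), and Rpl5 from 1185 ± 11.1 to 1669 ± 25.8 TPM (log2 fold change 0.49, adjusted p = 1.12e-05 in limma). Ribosomal protein genes have many near-identical pseudogenes, so the values of Rpl5, Rpl11 and Rpl23 depend on how reads were assigned. With median-ratio scaling 5 genes of this list were lower and 4 higher, beside 25.2% and 26% of all tested genes.

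Paralogs of the members were tested in 10 of 12 cases, and 8 were called lower and 2 higher, beside 58.5% and 8.66% of all tested genes. The largest falls were those of Trp53inp2, given above, and Zmat1 (from 7.75 ± 0.486 to 3.15 ± 0.121 TPM, SD, n = 3 each; log2 fold change -1.07, adjusted p = 5.38e-05 in limma), and the rises were those of Sesn2 and Phlda1. Where no gene of a list was called in a direction by limma (higher in the feedback, p53 family, death-restraining, DREAM and DNA repair lists as deposited, and lower in the DREAM list with median-ratio scaling), the number at an unadjusted p under 0.05 was 0 as well. Across the members and all lists together, 91 of 104 genes were tested, of which 13 were called higher and 53 lower. Together these are 72.5% of the 91, beside 67.2% of all tested genes (8.66% higher and 58.5% lower), and 44 of the 91 lay above the all-gene median. A change of 2-fold or more was called for 8 of the 91, beside the 8.22% of all tested genes given above. They were Sesn2, Cdkn1a and Plk3, which rose, and Bmf, Gadd45a, Trp53inp2, Bcl2 and Zmat1, which fell. As deposited, with median-ratio scaling and with the length-GC correction alike, the same 13 genes were called higher, Bax and Trp53inp1 among them, and 20 genes were called lower, Ccng1 and Perp among them. How many of all tested genes kept a call in this way was not counted.

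**Figure D4:**
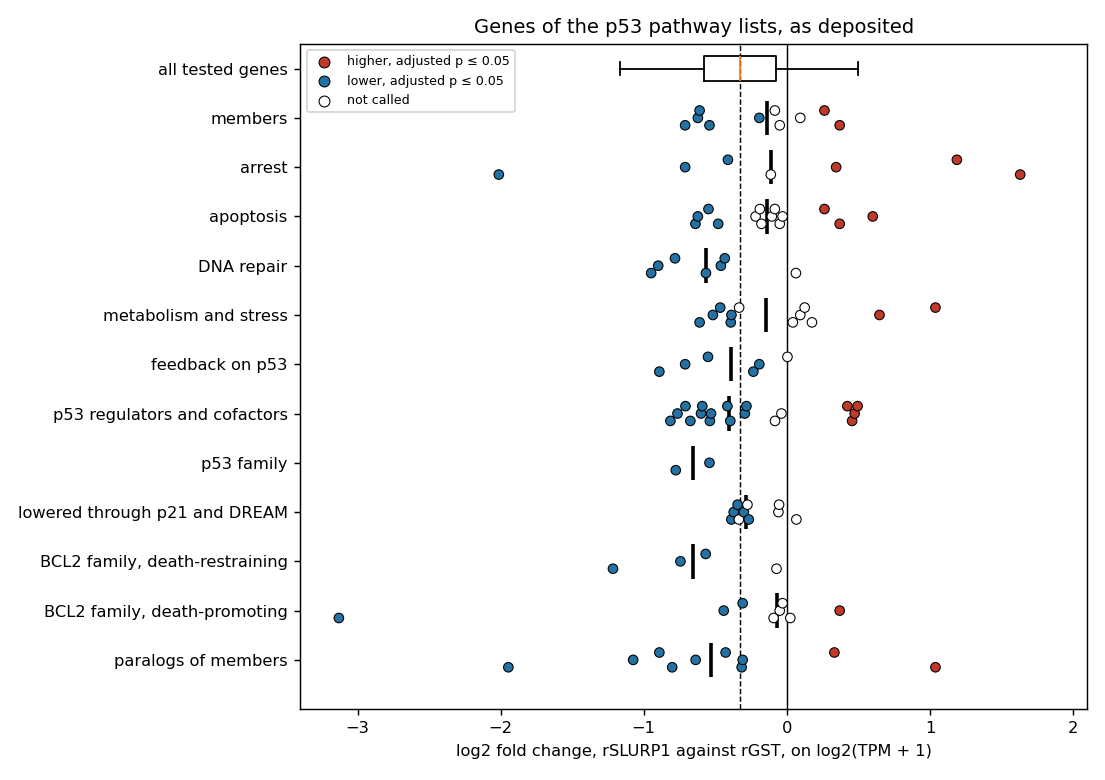
Each point is the log2 fold change of 1 tested gene (horizontal axis, rSLURP1 against rGST on log2(TPM + 1), as deposited) in the members and the pathway lists, colored by its call, with a thick bar at the list's median. A gene can be in several lists. The box at the top gives the quartiles of all tested genes, with whiskers at the 5 and 95 percentiles (-1.16 and 0.49), and the dashed line is their median of -0.33. The arrest list spreads furthest to the right, with Plk3 at 1.63 and Cdkn1a at 1.19.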

How the data were processed

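The 6 RNAseq libraries of D2A1 spheroids were assigned to rGST (3) or rSLURP1 (3) from the sample labels. Reads had been trimmed with Cutadapt, mapped to mm10 with STAR 2.5.2b and summarised per gene with RSEM, and the authors deposited the resulting TPM, with a column for each library. The submitters' processing notes list Cutadapt 1.18 and RSEM 1.3.3, while the paper names other versions of both. For library preparation a TruSeq kit is named in the labels and Smart-seq2 in the methods, which is not settled here, and strandedness is not given in the sources used here. TPM does not hold the number of reads, so depth is unknown.

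For the 12301 genes at 1 TPM or more in 3 or more libraries, all members among them, log2(TPM + 1) was tested in limma (3.58.1, R 4.3.3; lmFit, eBayes with trend) without a block, and p-values were adjusted over these genes by Benjamini-Hochberg. Coordinates, transcript lengths and GC content came from GENCODE M21 (GRCm38, the build of the files), whereas the methods name M12. Gene pairs were compared by exact permutation of the log2 ratio of TPM + 1. The members and lists were chosen with earlier results of these data known. Named genes are the members, Cdkn1a, Mdm4, Pmaip1, Gadd45a, Ppm1d, Fas, the other gene of each pair, the 2 highest and 2 lowest called genes of each list and every called gene changed 2-fold. Genes named beside these to explain a count were chosen after their values were seen. Alternatives were another pseudocount (0.1), filtering in all 6 libraries or not at all, median-ratio or quantile scaling, removal of mitochondrial genes, eBayes with no trend, a block for the replicate number, loess correction for length and GC (span 0.3) alone or with that block, and omission of each library in turn. The main limma fit was tested on simulated data, while the alternatives, the ratios and the promoter searches were not. Figures were drawn with matplotlib 3.10.9 in Python 3.11.15.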

Additional observations from a re-analysis of the deposited data

How the results depend on the processing

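Over 16 alternatives for each member, 14 values reversed in direction. Counting these too, a call was lost 18 times (Mdm2 12, Trp53 4, Sesn1 2) and gained 8 times (Bbc3 4, Zmat3 3, Phlda3 1). The cause of these changes was not tested. In the order median-ratio scaling, quantile normalization, length-GC correction, and length-GC correction blocked by replicate number, the genes called were 3198, 3111, 3320 and 3095 higher and 3094, 2905, 2690 and 2468 lower, in place of 1065 and 7200. Members called higher were 5, 4 and 4 under the last 3 of these, in place of 2, and members called lower were 3, 3, 2 and 2 under the 4, in place of 5. Over the members and lists, 26 genes were higher under each, in place of 13, and 23, 21, 22 and 20 lower, in place of 53. Under these settings Mdm2 reversed to 0.15, 0.16, 0.18 and 0.18, Bbc3 to 0.29, 0.34, 0.21 and 0.21, and Zmat3 to 0.22, 0.31, 0.38 and 0.38. Leaving out 1 library gave Bbc3 from -0.10 to 0.0046, Phlda3 from -0.066 to 0.18, and the difference of the Ccng1 to Ccng2 ratio from -0.19 to 0.0058. Deviations of same-numbered libraries correlated at -0.061 to -0.034 across genes. This cannot show whether those libraries were made together, and the labels do not say. A block for the replicate number ended the call of Mdm2 (adjusted p = 0.0583 in limma) and of no other member. What read depth limits for low genes such as Cdkn1a and Zmat3 could not be assessed.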
